A study of Homo sapiens with 6 samples.

Results

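Polycomb repressive complex 2 and the enzymes that write, copy and erase DNA methylation are represented here by 10 genes: EZH1, EZH2, EED, SUZ12, DNMT1, DNMT3A, DNMT3B, UHRF1, TET1 and TET2. They were chosen by name from the 62696 genes counted in RNA-Seq libraries of the human line DMS53, which was derived from an SCLC and carries an NE programme, and all 10 were among the 17307 genes with enough counts to be tested. The control group was 3 samples of cells carrying an empty lentiviral vector for mGFP and puromycin resistance. The OC2-OE group was 3 samples of cells carrying the same kind of vector with mGFP-tagged ONECUT2 (OC2), a homeodomain transcription factor. Both groups were selected with puromycin, and in OC2-OE the expression was constitutive, so early and late changes cannot be told apart. The labels do not say whether the 3 samples of a group came from separate transductions or from 1 transduced pool. The libraries held 16533284 to 19099337 counted read pairs.

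PRC2 places methyl groups on lysine 27 of histone H3, a mark of silenced developmental genes. Its catalytic subunit is EZH2, which is abundant in dividing cells, or its paralog EZH1, which is typical of resting and differentiated cells, and neither works without EED, which reads the mark, and SUZ12, which holds the complex together. DNMT1 copies cytosine methylation onto the new strand after replication, guided by UHRF1, which recognises hemimethylated sites. DNMT3A and DNMT3B methylate unmethylated sites, while TET1 and TET2 oxidise methylcytosine as a first step of its removal. In SCLC, EZH2 is known for its high expression and for silencing genes such as SLFN11.

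ONECUT2 had 394 to 465 counts in control and 68853 to 74031 in OC2-OE, which fits the labels, although transgene and endogenous reads were not separated. Over all tested genes 28.7% fell and 27.8% rose. Of 10 NE markers fixed for this cell type, 8 fell, 1 rose and 1 did not pass the test. Among the 8 falls, the call of CHGB was lost in 6 of 15 alternative fits, DESeq2 among them. The summed level of the 10 markers went from 5496 to 5530 CPM in the control libraries to 3536 to 3610 CPM in OC2-OE. CPM are counts divided by the library's size after correction with edgeR's TMM factors. All 10 NE markers were detected. Of 5 leukocyte markers both that were tested rose, CD14 from 3.60 to 5.86 CPM and LYZ from 0.401 to 2.22 CPM, whereas PTPRC and CD3E, which mark leukocytes and T cells, had at most 1 count in any library. The summed level of the leukocyte markers was 3.80 to 4.42 CPM in control and 7.44 to 9.06 CPM in OC2-OE, that of 6 fibroblast markers 21.2 to 23.9 and 28.1 to 32.1 CPM, nearly all from COL1A1, and that of 4 endothelial markers 12.7 to 15 and 4.17 to 4.73 CPM. The part of these markers in the results was not tested. These are bulk libraries, in which fewer cells of a type and less RNA per cell cannot be told apart.

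The start regions of the members differ in sequence, and the following were chosen because they carry letters of 2 kinds of transcription factor or, for EZH1, because neither kind is there and the gene moved opposite to its paralog. E2F factors, which drive genes of DNA replication, are known to bind TTTCCCGC, TTTGGCGC and TTTCGCGC, and ONECUT factors are known to bind ATTGAT and ATCGAT. These letters were sought on both strands, with no letters of one kind overlapping the other. In RefSeq windows of 300 bases, 250 before to 50 after a gene's start (GRCh38.p14), E2F letters were in 2.7% of all 35114 windows and in 5 of the 21 windows of the members. The 5 windows belong to 4 members, EZH2 (1 of its 2 windows), SUZ12, DNMT1 and UHRF1 (2 of 3). ONECUT letters were in 7.0% of all windows and in 2 of the 21, 1 of 3 for TET1 and 1 of 2 for TET2. A start is that of a RefSeq transcript, and relative to the first base of the gene in the files it lay 40137 bases downstream for the printed TET1 window, 36333 for DNMT1, 6421 for UHRF1, 1001 for TET2 and 0 to 30 for the printed windows of EZH2, SUZ12 and EZH1. The window at the first base of TET1 had neither kind of letters. Below, 200 bases before to 20 after the start are printed on the gene's strand, with E2F or ONECUT letters in capitals.
EZH2, chr7:148884272-148884491, minus strand, E2F letters 1 base after the start: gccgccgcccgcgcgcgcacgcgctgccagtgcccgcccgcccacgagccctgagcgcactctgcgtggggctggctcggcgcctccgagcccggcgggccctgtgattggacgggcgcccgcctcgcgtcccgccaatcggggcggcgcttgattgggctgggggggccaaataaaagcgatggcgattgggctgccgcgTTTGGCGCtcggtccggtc
SUZ12, chr17:31936807-31937026, plus strand, E2F letters 189 bases before the start: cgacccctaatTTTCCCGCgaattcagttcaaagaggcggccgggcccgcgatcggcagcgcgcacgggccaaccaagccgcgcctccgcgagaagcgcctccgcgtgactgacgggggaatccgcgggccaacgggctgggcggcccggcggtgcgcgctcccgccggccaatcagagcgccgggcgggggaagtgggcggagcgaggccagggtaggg
DNMT1, chr19:10194934-10195153, minus strand, E2F letters 2 bases before the start: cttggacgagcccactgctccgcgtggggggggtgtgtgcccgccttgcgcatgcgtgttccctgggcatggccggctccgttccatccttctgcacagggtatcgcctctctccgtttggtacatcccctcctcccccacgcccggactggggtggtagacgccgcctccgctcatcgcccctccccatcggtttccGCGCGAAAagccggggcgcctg
UHRF1, chr19:4909301-4909520, plus strand, E2F letters 14 bases before the start: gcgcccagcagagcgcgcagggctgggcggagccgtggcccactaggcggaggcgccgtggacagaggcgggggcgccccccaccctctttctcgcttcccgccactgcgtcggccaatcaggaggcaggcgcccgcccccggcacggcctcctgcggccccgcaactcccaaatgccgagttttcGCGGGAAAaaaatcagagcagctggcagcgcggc
TET1, chr10:68600274-68600493, plus strand, ONECUT letters 152 bases before the start: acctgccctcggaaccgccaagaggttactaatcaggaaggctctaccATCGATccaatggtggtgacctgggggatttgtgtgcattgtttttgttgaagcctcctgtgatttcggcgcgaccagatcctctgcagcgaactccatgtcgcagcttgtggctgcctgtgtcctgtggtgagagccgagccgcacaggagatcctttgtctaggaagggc
TET2, chr4:105146676-105146895, plus strand, ONECUT letters 26 bases before the start: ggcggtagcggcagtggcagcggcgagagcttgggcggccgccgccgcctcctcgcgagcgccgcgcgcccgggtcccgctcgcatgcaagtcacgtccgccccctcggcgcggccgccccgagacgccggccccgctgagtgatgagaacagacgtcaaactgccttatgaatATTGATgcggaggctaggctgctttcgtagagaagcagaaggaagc
EZH1, chr17:42745021-42745240, minus strand, neither kind: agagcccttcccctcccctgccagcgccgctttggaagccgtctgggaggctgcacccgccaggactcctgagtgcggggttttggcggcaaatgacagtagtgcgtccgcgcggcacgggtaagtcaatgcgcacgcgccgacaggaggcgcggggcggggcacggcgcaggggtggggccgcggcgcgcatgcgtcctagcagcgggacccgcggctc
A match is a description of the sequence and not a binding site. In EZH2 and DNMT1 the E2F letters lie at the start itself, and in UHRF1 just before it. The windows also differed in CpG dinucleotides, of which EZH2 had 46, SUZ12 40, DNMT1 and EZH1 30 each and the printed UHRF1 window 36. The single DNMT3B window, whose start lies 17467 bases downstream of the first base of the gene in the files, had 3 CpG and that of EED, at the first base, had 16, beside a median of 14 over all windows with quartiles of 4 and 28.

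Members differed between OC2-OE and control in both directions. At an adjusted p under 0.001 (edgeR's quasi-likelihood test, Benjamini-Hochberg adjustment over all tested genes), 7 of the 10 members were called, beside 56.5% of all tested genes. DNMT1, DNMT3B, UHRF1, TET1 and EZH2 fell, where 28.7% of tested genes fell, and EZH1 and TET2 rose, where 27.8% rose. EED, SUZ12 and DNMT3A did not pass. The median log2 fold change of the members was -0.26, against 0.01 for all tested genes. The plot of fold changes shows that 6 of the 10 members, all of them called, lay outside the quartiles of all tested genes. TET2, EED, SUZ12 and DNMT3A lay inside. By definition, about as many tested genes lie outside these quartiles as inside.

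**Figure D1:**
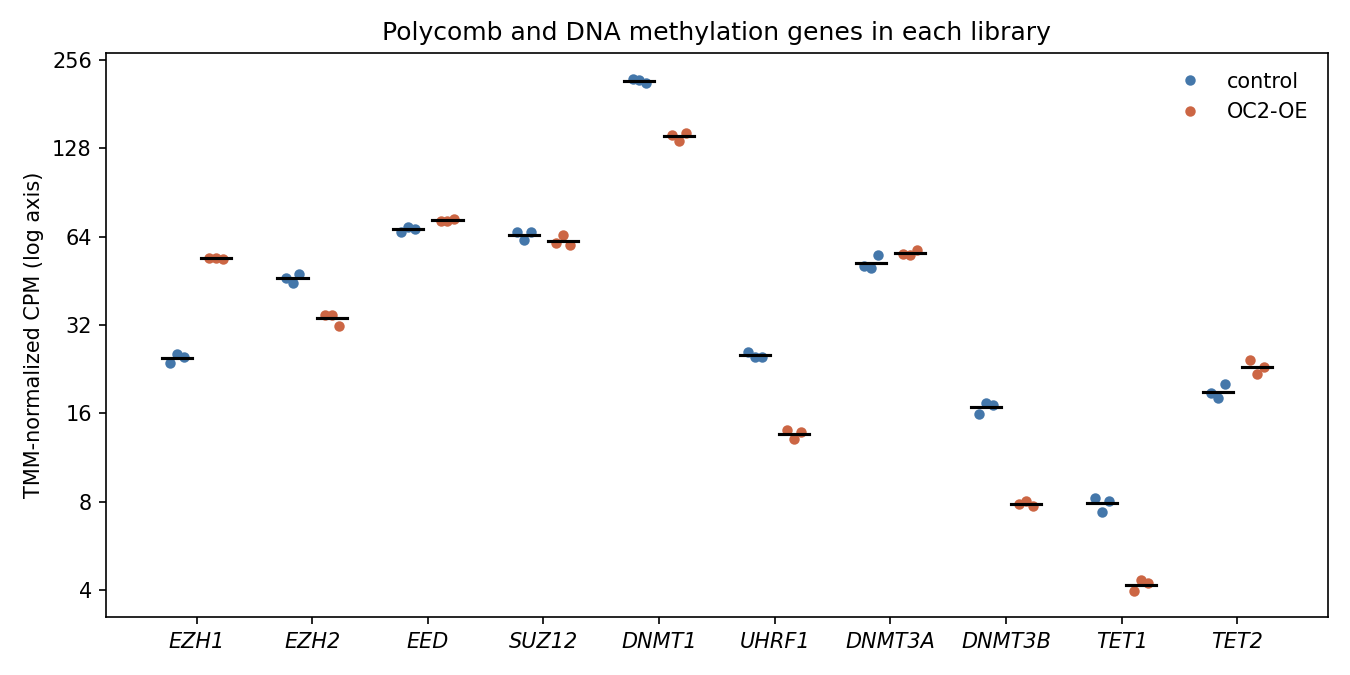
TMM-normalized CPM of each member (log axis) in the 3 control and 3 OC2-OE libraries, with a point per library and a bar at the group mean. The groups overlap only for SUZ12, and those of 73.2% of all tested genes did not overlap.

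The paralogous catalytic subunits of PRC2 moved in opposite directions. EZH1 (ENSG00000108799.13, chr17:42700275-42745049, minus strand, GRCh38) was at 23.8, 25.4 and 24.9 CPM in control and at 54.3, 54.0 and 53.8 CPM in OC2-OE. Every OC2-OE library lay far above every control library. EZH1 rose 2.19-fold, a log2 fold change of 1.13 (SE 0.055, adjusted p = 3.22e-39), and 15.4% of tested genes had a larger absolute change. EZH2 (ENSG00000106462.12, chr7:148807257-148884321, minus strand) was at 46.2, 44.6 and 47.8 CPM in control and at 34.6, 34.7 and 31.7 CPM in OC2-OE. The groups were apart here too, but the difference was smaller. EZH2 fell 1.37-fold, a log2 fold change of -0.46 (SE 0.054, adjusted p = 3.52e-13), and 43.2% of tested genes had a larger absolute change.

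The 2 core subunits differed little. EED (ENSG00000074266.22, chr11:86244753-86278813, plus strand) was at 66.5, 68.7 and 67.8 CPM in control and at 72.2, 72.3 and 73.4 CPM in OC2-OE. Its groups did not overlap, as was so for 73.2% of tested genes, yet its log2 fold change of 0.10 (95% interval 0.02 to 0.19, adjusted p = 0.0213) did not pass. With no scaling other than library size the log2 fold change of EED was 0.15 (adjusted p = 0.000596), which did. SUZ12 (ENSG00000178691.11, chr17:31937007-32001038, plus strand) was at 66.3, 62.2 and 66.1 CPM in control and at 61.0, 64.5 and 59.8 CPM in OC2-OE. Its groups overlapped, and its log2 fold change was -0.07 (95% interval -0.16 to 0.02, adjusted p = 0.137).

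Both genes of maintenance methylation fell. DNMT1 (ENSG00000130816.17, chr19:10133342-10231286, minus strand), the member with the most counts, was at 221, 218 and 213 CPM in control and at 142, 136 and 144 CPM in OC2-OE. This was a 1.55-fold fall without overlap, a log2 fold change of -0.63 (SE 0.029, adjusted p = 9.29e-41). UHRF1 (ENSG00000276043.5, chr19:4903080-4962154, plus strand) was at 26.0, 24.98 and 24.97 CPM in control and at 14.04, 13.1 and 13.8 CPM in OC2-OE. UHRF1 fell 1.85-fold, a log2 fold change of -0.89 (SE 0.075, adjusted p = 5.56e-21). DNMT1 shares 83 of its 15379 exon bases (0.54%) with S1PR2 on the same strand, where reads could not be assigned to either.

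Of the de novo methyltransferases, DNMT3B fell and DNMT3A did not pass the test. DNMT3B (ENSG00000088305.19, chr20:32762385-32809359, plus strand) was at 15.9, 17.3 and 17.1 CPM in control and at 7.88, 8.02 and 7.74 CPM in OC2-OE. It fell 2.13-fold, a log2 fold change of -1.09 (SE 0.094, adjusted p = 2.55e-20), the lowest among the members. Of all tested genes, 9.04% were called with a fall of at least 1 on the log2 scale, and 8.29% with a rise of that size, as EZH1 had. DNMT3A (ENSG00000119772.19, chr2:25227855-25342590, minus strand) was at 50.7, 50.1 and 55.3 CPM in control and at 55.7, 55.4 and 57.4 CPM in OC2-OE. The highest control library of DNMT3A nearly met the lowest OC2-OE library, and its log2 fold change was 0.11 (95% interval 0.02 to 0.20, adjusted p = 0.0288).

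The TET members also moved apart. TET1 (ENSG00000138336.9, chr10:68560337-68694487, plus strand), with the fewest counts (409 over the control and 228 over the OC2-OE libraries), was at 8.24, 7.41 and 8.06 CPM in control and at 3.97, 4.33 and 4.23 CPM in OC2-OE. It fell 1.90-fold, a log2 fold change of -0.92 (SE 0.132, adjusted p = 5.84e-10). TET2 (ENSG00000168769.14, chr4:105145875-105279816, plus strand) was at 18.8, 17.99 and 20.2 CPM in control and at 24.3, 21.8 and 22.9 CPM in OC2-OE. Its groups were apart, but by less than in TET1. TET2 rose 1.22-fold, a log2 fold change of 0.28 (SE 0.072, adjusted p = 0.000291), and this call did not hold with DESeq2 (adjusted p = 0.00498) or without control replicate 1, control replicate 2, OC2-OE replicate 1 or OC2-OE replicate 3 (adjusted p = 0.00115 to 0.00615).

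**Figure D2:**
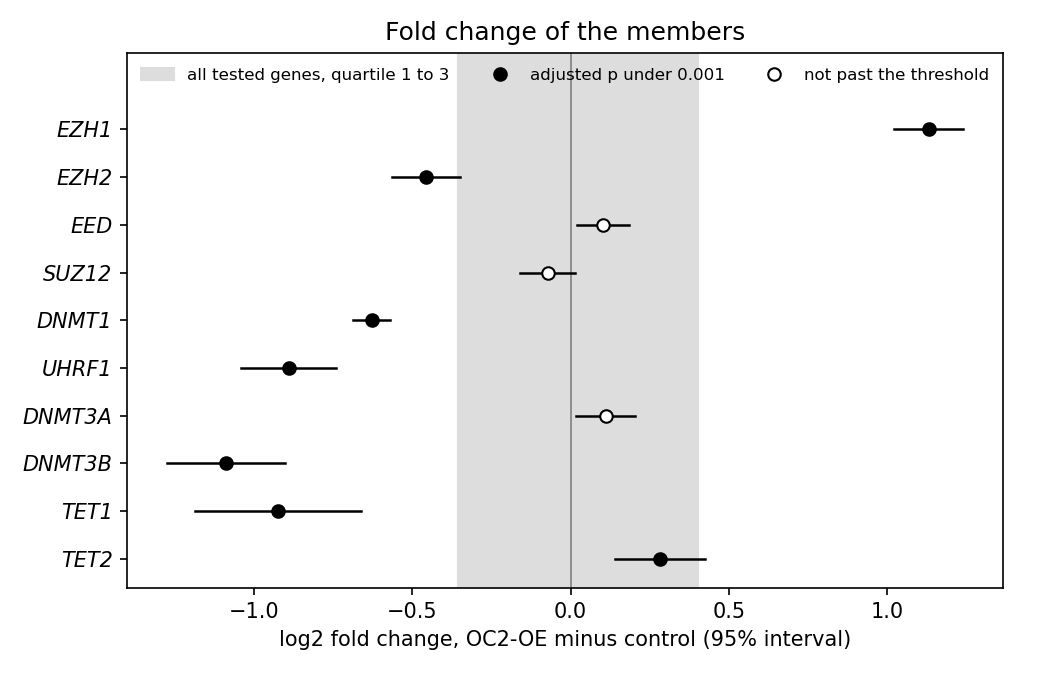
Log2 fold change (OC2-OE minus control) of each member with its 95% interval, filled where the adjusted p is under 0.001, over a grey band from the first to the third quartile of all 17307 tested genes (-0.36 to 0.40). EZH1 lies to the right of the band, and DNMT3B, TET1, UHRF1, DNMT1 and EZH2 lie to the left.

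Ratios of members within a library do not depend on the scaling between libraries and were compared for 6 pairs. EZH2 per EZH1, per base of exon, was 1.26, 1.14 and 1.25 in control and 0.413, 0.417 and 0.382 in OC2-OE, a log2 difference of -1.59 or a ratio 3.01-fold lower. DNMT3B per DNMT3A was 0.631, 0.693 and 0.620 in control and 0.284, 0.290 and 0.270 in OC2-OE, a 2.30-fold difference. TET1 per TET2 was 0.752, 0.706 and 0.685 in control and 0.280, 0.340 and 0.316 in OC2-OE, also a 2.30-fold difference. In all 3 pairs the OC2-OE libraries were the lower ones without overlap. The other pairs moved less: UHRF1 per DNMT1 was 0.348 ± 0.00447 (SD, n = 3) in control and 0.290 ± 0.00535 in OC2-OE, EZH2 per SUZ12 was 0.433 ± 0.00845 and 0.331 ± 0.0120, and EED per SUZ12 was 1.01 ± 0.0518 and 1.13 ± 0.0517. No library of one group overlapped the other in any of the 6 pairs. For EED per SUZ12 the highest control library, 1.06, nearly met the lowest OC2-OE library, 1.08. The groups of 73.2% of single tested genes did not overlap either, and the share among other gene pairs was not computed. Each pair had an exact two-sided permutation p of 0.1 (0.1 after Benjamini-Hochberg adjustment over the 6), the smallest that 3 against 3 libraries can give.

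**Figure D3:**
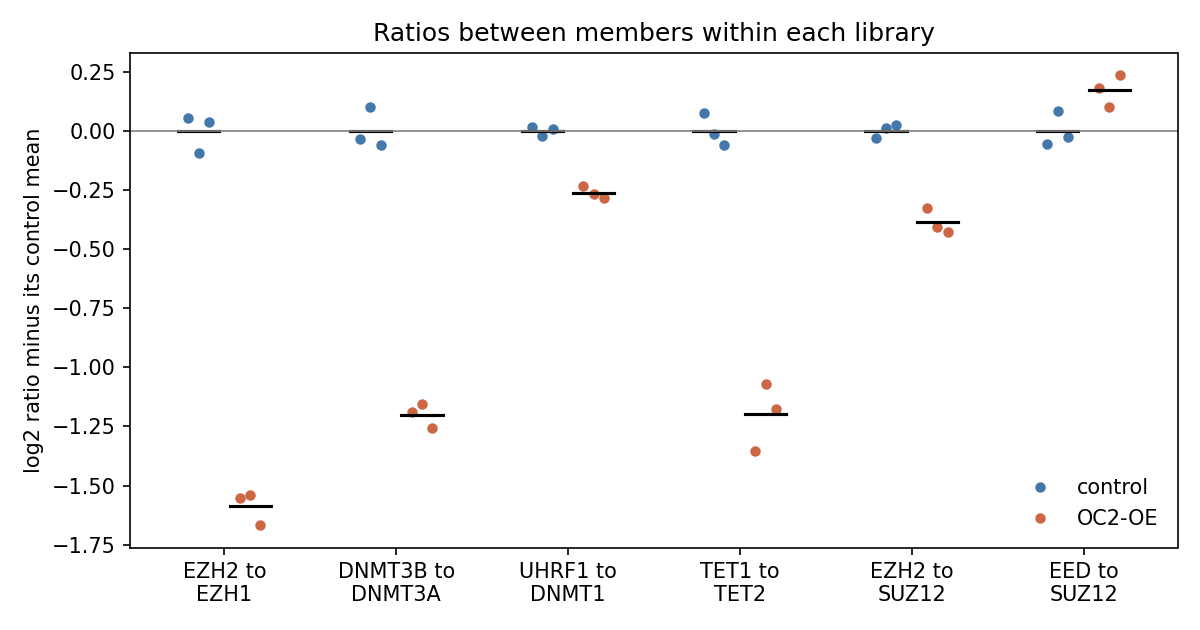
Log2 ratio of 6 pairs of members in each library, with the mean of the control libraries set to 0 for each pair; points are libraries and bars are group means. The OC2-OE points lie under those of control in 5 pairs, by -1.59 on average for EZH2 to EZH1, and above them for EED to SUZ12.

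The order of levels between genes needs a length, and it depended on which length was used. Per kilobase of the merged exons in the files, DNMT1 was highest in control (14.1 ± 0.242 CPM per kb, SD, n = 3), followed by EED (9.94 ± 0.166) and SUZ12 (9.90 ± 0.356), which overlapped each other. UHRF1 (4.92 ± 0.111), EZH2 (4.29 ± 0.151), DNMT3A (3.78 ± 0.205), EZH1 (3.53 ± 0.120), DNMT3B (2.44 ± 0.107), TET2 (1.15 ± 0.0670) and TET1 (0.822 ± 0.0454) came next, with no overlap between neighbours. In OC2-OE, EED was highest (10.7 ± 0.0995 CPM per kb), SUZ12 (9.43 ± 0.374) and DNMT1 (9.13 ± 0.289) overlapped, EZH1 followed them (7.73 ± 0.0316) and TET1 lowest (0.434 ± 0.0194). Merged exons count every annotated exon of a gene, and those of EZH2 span 10774 bases against 2639 for its principal transcript. Per kilobase of the principal transcript, DNMT1 (40.1 ± 0.689) and EED (30.4 ± 0.509) led in control, followed by EZH2 (17.5 ± 0.618), which was above SUZ12 (14.4 ± 0.519). On that scale EZH1 was at 5.34 ± 0.181 CPM per kb in control and 11.7 ± 0.0478 in OC2-OE, where EZH2 was at 12.8 ± 0.638. EZH1 thus made up 45.2% ± 1.38 of the summed EZH1 and EZH2 level in control and 71.2% ± 0.979 in OC2-OE with merged exons, and 23.4% ± 1.01 and 47.8% ± 1.1995 with principal transcripts (SD, n = 3). TET3, the remaining TET enzyme and no member, was 81.6% of the summed TET level in control and 81.2% in OC2-OE with merged exons, and 78.6% and 76.8% with principal transcripts.

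Further partners of PRC2 moved in both directions. Of 10 such genes 9 were tested, of which 4 fell, 2 rose and 3 did not pass, with a median log2 fold change of -0.06. Over all tested genes 28.7% fell and 27.8% rose, and these shares are the background for this and every later list. PHF19, which brings PRC2 to its targets, was at 170 ± 1.83 CPM (SD, n = 3) in control and at 46.8 ± 2.28 CPM in OC2-OE, a log2 fold change of -1.87 (adjusted p = 1.52e-77). Its relative MTF2 fell from 77.6 to 53.7 CPM and LCOR, whose locus also encodes a PRC2 partner, fell from 198 to 133 CPM, whereas PHF1, also a Polycomb-like protein, rose from 37.9 to 54.3 CPM. JARID2, a targeting subunit, rose by 0.35 on the log2 scale (adjusted p = 3.59e-08). Of the histone-binding subunits, RBBP7 fell by 0.10 (adjusted p = 0.000223), a call lost without any 1 of the 3 OC2-OE replicates, with library size only, with upper-quartile normalization and without a filter (adjusted p up to 0.0676), and RBBP4 was at a log2 fold change of -0.06 (adjusted p = 0.0195). EZHIP, an inhibitor of PRC2, had 0 to 4 counts per library and was not tested.

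Of 24 subunits of PRC1, the complex that ubiquitinates histone H2A, 14 were called, near the 56.5% of all tested genes. Of the subunits 8 rose, 6 fell and 10 did not pass, with a median of 0.04. With library size only 9 rose and 4 fell, and with upper-quartile normalization 9 rose and 5 fell. Of the falls, PHC2 lost its call in 4 of 15 alternatives and CBX6 in 1, and of the rises PCGF2 in 1. SCMH1 rose from 33.4 ± 0.682 to 75.5 ± 2.71 CPM (SD, n = 3, log2 fold change 1.18) and CBX7, which reads the PRC2 mark, rose from 18.8 ± 1.45 to 37.3 ± 0.156 CPM (0.99). RNF2, a catalytic subunit, rose by 0.44, and SCML2 fell by 0.40, on the log2 scale. Among 6 genes that remove the Polycomb marks, 1 rose, 3 fell and 2 did not pass. KDM6B, a demethylase of the PRC2 mark, rose from 189 ± 4.36 to 307 ± 4.98 CPM (log2 fold change 0.70, adjusted p = 1.22e-49), and KDM6A, the other demethylase, was at 0.05 (adjusted p = 0.343). ASXL3, a partner of the H2A deubiquitinase, fell from 11.6 to 5.76 CPM, ASXL1 from 145 to 127 CPM and ASXL2 from 79.4 to 71.1 CPM. The call of ASXL2 was lost in 8 of 15 alternatives, among them DESeq2 and each library left out except control replicate 2 (adjusted p up to 0.0132).

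Of 21 partners and readers of DNA methylation and genes of its oxidation, 20 were tested, of which 10 fell, 3 rose and 7 did not pass, with a median of -0.20. The 13 called of 20 stand beside 56.5% of all tested genes. HELLS, a helicase needed for methylation of repeats, fell from 37.9 ± 2.005 to 20.6 ± 1.95 CPM (log2 fold change -0.88, adjusted p = 3.01e-25). TDG, the glycosylase that excises TET products, fell by 0.61 and TET3 fell by 0.15 on the log2 scale (adjusted p = 3.11e-35 and 8.01e-05), and the call of TET3 was lost in 6 of 15 alternatives, with library size only, upper-quartile normalization or DESeq2 and without control replicate 1, OC2-OE replicate 1 or OC2-OE replicate 2 (adjusted p up to 0.00812). UHRF2, the paralog of UHRF1, was at 0.04 (adjusted p = 0.477), and DNMT3L, the cofactor of the de novo enzymes, had 0 counts in all 6 libraries. The genes for isocitrate dehydrogenases, which make the 2-oxoglutarate that TET and KDM6 enzymes use, moved in opposite directions. IDH1, the cytosolic form, rose from 289 ± 3.79 to 668 ± 0.357 CPM (1.21) and IDH2, the mitochondrial form, fell from 384 ± 9.66 to 103 ± 0.945 CPM (-1.90). GADD45A, a stress gene linked to demethylation, fell from 156 to 79.9 CPM.

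The falling members were read beside genes of the cell cycle, since DNMT1, UHRF1 and EZH2 are known to be highest in dividing cells. All 24 replication genes fell, with log2 fold changes of -2.14 to -0.37 and a median of -0.92, and those of GINS2, RRM2, GINS1 and FEN1 were -2.14, -1.53, -1.30 and -1.19. Of 22 mitosis genes 21 fell and 1, NUSAP1, did not pass, with a median of -2.19. NUSAP1 was at -0.70, with only 7 to 24 counts per library. PLK1, KIF20A, CDC20 and CENPF were at -2.75, -2.67, -2.55 and -2.33. All 5 falling members lay within the range of the replication genes. EZH2 was near its upper end, with 22 of 24 replication genes lower than it, and DNMT1 had 20 of 24 lower. UHRF1 and TET1 each had 12 of 24 lower and DNMT3B 4 of 24. EZH1, TET2, DNMT3A, EED and SUZ12 lay above all 24. E2F letters were in the windows of 13 of the 22 replication genes with a window, beside 3.3% of all 27303 genes. Among the members, the falling EZH2, DNMT1 and UHRF1 had them, and so did SUZ12, which did not pass. DNMT3B and TET1, which also fell, had none in any window. The part of the cell cycle in the change of the members was not tested.

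**Figure D4:**
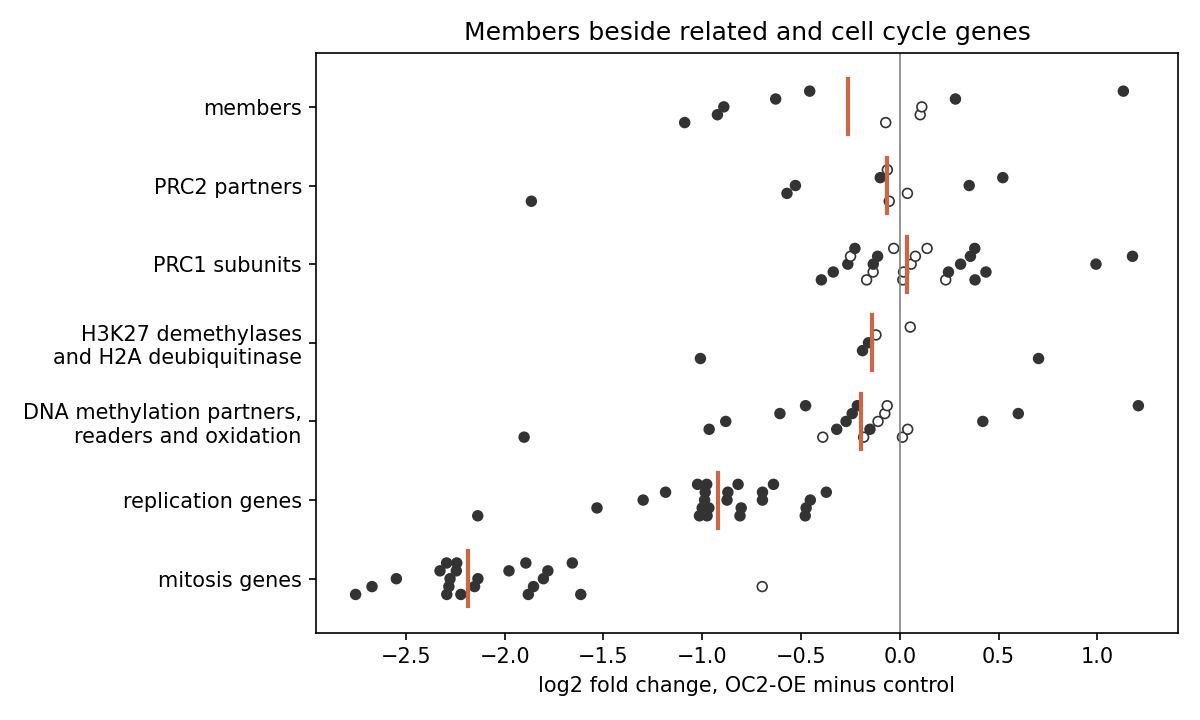
Log2 fold change (OC2-OE minus control) of each tested gene in the 10 members and 6 gene lists, filled where the adjusted p is under 0.001, with an orange bar at the list's median; vertical offsets within a list only separate the points. The members spread from -1.09 to 1.13, the replication genes lie between -2.14 and -0.37, and the mitosis genes have a median of -2.19.

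Among 16 E2F and DREAM genes, which control the cell cycle genes, 11 fell, 2 rose and 3 did not pass, with a median of -0.57. Of the 2 that rose, E2F5 lost its call without control replicate 3 (adjusted p = 0.00107). The log2 fold changes of FOXM1 and MYBL2, activators of mitotic genes, were -1.58 and -1.46, and those of E2F8 and E2F7, repressors of the E2F family, -1.39 and -1.13.

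Genes that PRC2 or DNA methylation is known to keep silent moved in both directions, as did all tested genes, of which 27.8% rose and 28.7% fell. SLFN11 was at 44.0 ± 1.89 CPM (SD, n = 3) in control and at 50.4 ± 2.20 CPM in OC2-OE, a rise of 0.20 on the log2 scale (adjusted p = 0.000281). This call was lost with DESeq2 and without control replicate 1, control replicate 3, OC2-OE replicate 1 or OC2-OE replicate 3 (adjusted p up to 0.00424). Of 13 genes named as silenced by EZH2 in cancer 9 were tested, of which 3 rose, 3 fell and 3 did not pass. The counts of rises and falls were 2 and 1 with DESeq2 or without OC2-OE replicate 1. They were 2 and 4 without control replicate 1, and 4 and 3 with library size only or upper-quartile normalization. One of the falls, CDKN1C, lost its call in 4 of 14 alternatives, with DESeq2 and without control replicate 3, OC2-OE replicate 1 or OC2-OE replicate 3. CDKN2B, an inhibitor of CDK4 and CDK6, rose from 4.27 ± 0.437 to 13.4 ± 0.958 CPM (log2 fold change 1.65), DAB2IP rose by 0.58 and RUNX3 fell by 0.76, the last a call lost with DESeq2 and without control replicate 2, OC2-OE replicate 1 or OC2-OE replicate 2 (adjusted p up to 0.00343). Their median of 0.12 became -0.18 without a filter on low counts, -0.13 without control replicate 1 and 0.022 without OC2-OE replicate 1. Of 30 developmental transcription factors known as Polycomb targets 17 were tested, of which 6 fell, 1 rose and 10 did not pass, with a median of -0.60. SOX17, FOXC1 and SIX2 fell, with log2 fold changes of -1.91, -1.42 and -1.11, and HOXA5 rose by 0.94, with 84 counts over the control and 171 over the OC2-OE libraries. HOXA5 did not pass with DESeq2 or without OC2-OE replicate 2 (adjusted p up to 0.00163). PAX7 had 82 counts over the control libraries and 0 in OC2-OE, at least 28.9-fold lower against a floor of 3 counts over the group. Of 20 germline genes known to be held by DNA methylation 5 were tested, 3 fell, 1 rose and 1 did not pass, and 6 had 0 counts in all libraries. TEX101 rose from 30 counts over the control libraries to 217 over OC2-OE (log2 fold change 2.76), whereas SYCP1 fell from 105 counts to 9 (log2 fold change -3.57, adjusted p = 8.90e-14), STK31 fell by 0.90 and MAGEA3, whose reads shared with near-identical MAGEA copies are not counted, which makes its value uncertain, by 0.32. These libraries measure RNA, and neither methylation nor histone marks were measured in them.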

How the data were processed

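RNA was sequenced from 3 control and 3 OC2-OE samples as stranded poly(A) libraries. Per the submitters' processing notes and the file headers, the authors checked reads with FastQC version 0.11.8, aligned them with STAR version 2.7.9a and deposited raw counts of read pairs per gene from featureCounts version 1.6.0, with strand, over GENCODE release 42 (GRCh38). The header shows no option for multi-mapped reads, so reads shared with the pseudogenes of EZH2, SUZ12, EED, DNMT3A and TET1 are not counted, and those pseudogenes held 0 to 3 counts in all. Symbols were matched by identifier for 62625 of 62696 genes.

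Counts were normalized with TMM, filtered with filterByExpr and tested with the quasi-likelihood test of edgeR version 4.0.16 (R version 4.3.3), without a replicate term and with an adjusted p under 0.001, on all 17307 kept genes. SE is the absolute log2 fold change over the root of the F statistic. The study describes the RNA-Seq experiments of a condition as independent, but neither it nor the labels say at which step they were separate, so p-values measure the spread between these samples. Libraries of a group differed by 1.32 to 2.07 times sampling noise, which does not tell separate cultures from repeated library preparations, and each was counted as 1 sample. Counting intervals and floors cover counting error only. Levels between genes were taken per kilobase, from the exon length in the files or, chosen after seeing the data, the principal transcript of GENCODE release 29. Sequences are from RefSeq (GRCh38.p14), which had windows for all 10 members.

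The members and the 12 lists (210 genes) were chosen with earlier results of these data known, so lists are described by counts and medians without a test. Named genes are the members, ONECUT2, 12 genes fixed by name (DNMT3L, UHRF2, TET3, HELLS, TDG, RBBP4, RBBP7, JARID2, EZHIP, KDM6A, KDM6B and SLFN11) and, on each list, up to 4 genes with the largest absolute log2 fold change among those called whose mean log2 CPM was 1 or more and whose groups did not overlap. NUSAP1, PAX7, SYCP1, CDKN1C, E2F5, SETDB2, MAT2A, MTHFD2, SHMT2, CHGB, PHC2, CBX6, PCGF2, COL1A1, LYZ, PTPRC and CD3E are exceptions, picked with their values in view. A leukocyte marker of the original list is not reported here. Alternatives were other scalings, DESeq2 version 1.42.0, limma voom (limma version 3.58.1), other filters, ONECUT2 left out, a replicate block, other thresholds and each library left out. The fit was tested on simulated data with 200 changed genes.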

Additional observations from a re-analysis of the deposited data

How the results depend on the processing

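EZH1, EZH2, DNMT1, DNMT3B, UHRF1 and TET1 kept their direction and passed the threshold in all 15 alternatives run for each member, and SUZ12 and DNMT3A passed in 0 of 15. The call of TET2 held in 10 of 15. Of the other named genes, RBBP7, ASXL2, TET3, SLFN11, RUNX3, HOXA5, SETDB2, E2F5, MAT2A, MTHFD2 and SHMT2 lost their call in 6, 8, 6, 5, 4, 2, 9, 1, 6, 7 and 2 of 15, and CDKN1C in 4 of 14. CHGB lost its call in 6 of 15, PHC2 in 4, and CBX6 and PCGF2 in 1 each. The call of TET2 was lost with the Wald test of DESeq2 (0.28, adjusted p = 0.00498), and its log2 fold change was 0.24 to 0.32 when 1 library was left out. EED passed in 1 of 15, with library size only (0.15). An adjusted p under 0.05 called 9 members and 12354 genes, and a minimum absolute log2 fold change of 1 left 2 members (EZH1 and DNMT3B) and 2999 of 9776 genes. Over all tested genes 4810 rose and 4966 fell in the main fit. The balance turned with library size only (5337 rose, 4427 fell) and with upper-quartile normalization (5256 rose, 4521 fell). With the replicate number as a block, 9642 genes and 7 members were called. Same-numbered libraries correlated at -0.013 to 0.018 across 12136 genes, and libraries of different numbers at -0.023 to 0.0076. Whether same-numbered samples shared a day or a culture cannot be told from these values. No member's call changed under the block.

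Library size only moved the median of all tested genes from 0.01 to 0.06, and the list medians to -0.013 (PRC2 partners), 0.089 (PRC1), -0.089 (removal of Polycomb marks), -0.15 (DNA methylation partners), -0.057 (H3K9 and H3K36 methyltransferases), 0.085 (methyl donor cycle), -0.87 (replication), -2.14 (mitosis), -0.52 (E2F and DREAM), -0.27 (germline) and -0.55 (developmental factors). Upper-quartile normalization gave, in the same order without the last, -0.021, 0.081, -0.097, -0.16, -0.065, 0.078, -0.88, -2.14, -0.52 and -0.28. Without a filter on low counts the medians were -0.45 (germline) and -0.18 (EZH2-silenced genes). With at least 10 counts in every library they were -0.19 (DNA methylation partners), -0.91 (replication), -2.21 (mitosis), -0.47 (developmental factors) and 0.20 (EZH2-silenced genes). Leaving out 1 library at a time gave -0.22 to -0.18 for DNA methylation partners, -0.77 to -0.49 for developmental factors, -0.13 to 0.19 for EZH2-silenced genes, -0.084 to -0.051 for PRC2 partners, -0.16 to -0.12 for removal of Polycomb marks, -0.92 to -0.90 for replication, -0.37 to -0.29 for germline genes, 0.0051 to 0.044 for the methyl donor cycle and 0.035 to 0.057 for PRC1. The sign of the EZH2-silenced median was thus not stable, and the cause was not tested.

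With principal transcript lengths, a choice made after seeing the data, the log2 level ratios in control were 1.71 for EZH2 to EZH1 (0.28 with merged exons), -0.50 for DNMT3B to DNMT3A (-0.63), -2.36 for UHRF1 to DNMT1 (-1.52), -1.13 for TET1 to TET2 (-0.49), 0.28 for EZH2 to SUZ12 (-1.21) and 1.08 for EED to SUZ12 (0.01). The length sets this shift, and it is the same in both groups. Depth limits TET1 most, with 409 and 228 counts per group.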

Other observations

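Histone methyltransferases outside Polycomb were also measured. For these lists the background is the 56.5% of all tested genes called, 28.7% lower and 27.8% higher. Of 11 genes for H3K9 and H3K36 methyltransferases 5 fell, 2 rose and 4 did not pass (edgeR, adjusted p under 0.001), with a median log2 fold change of -0.11. One of the 2 that rose, SETDB2, lost its call in 9 of 15 alternatives, among them those without control replicate 2, control replicate 3, OC2-OE replicate 1 or OC2-OE replicate 3. SUV39H1 and SUV39H2, which write H3K9 methylation in heterochromatin, fell from 45.3 ± 1.81 to 23.9 ± 1.13 CPM and from 39.8 ± 0.749 to 19.96 ± 0.164 CPM (SD, n = 3), log2 fold changes of -0.92 and -0.995. NSD2 and NSD1, which dimethylate H3K36, fell by 0.71 and 0.55 on the log2 scale. Of 13 genes of the methyl donor cycle 12 were tested, of which 4 rose, 5 fell and 3 did not pass, with a median of 0.03 that was 0.0051 without control replicate 3. With library size only or upper-quartile normalization 4 rose and 3 fell, and the calls of MAT2A, MTHFD2 and SHMT2 were lost in 6, 7 and 2 of 15 alternatives. MAT2B, the regulatory subunit of the enzyme that makes S-adenosylmethionine, rose from 32.5 ± 1.83 to 52.1 ± 0.417 CPM (0.68). AHCY, which clears the product of methyl transfer, fell from 277 ± 6.29 to 189 ± 3.80 CPM (-0.55), and the folate enzymes SHMT1 and MTHFD1 fell by 0.64 and 0.55.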
